A study of Mus musculus with 3 samples.

Results

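The response of cultured mouse macrophages to a triglyceride load was read from 2 of the 3 Affymetrix arrays of this study, 1 for cells given PBS and 1 for cells given intralipid. The rule takes, for each gene, the deposited log2 value on the intralipid array minus that on the PBS array. Both cultures were peritoneal macrophages of male Angptl4-/- mice (C57Bl/6 background, strain label C57Bl/6J), so the controls lack the same gene as the treated cells. Thioglycollate, a sterile irritant (1 mL at 4%), had been injected into the peritoneum 3 days before harvest, non-adherent cells had been washed away after 2 h, and exposure began after 2 days in culture. Intralipid, an emulsion of triglyceride droplets used in parenteral nutrition, was given for 6 h at 0.5 mM triglyceride. The third array held cells given the same intralipid after 1.5 h with 2.5 µg/mL recombinant mouse ANGPTL4. Its values appear for some of the named genes only, as description. Each array carried RNA pooled from 3 samples of a group. The labels do not say whether these were separate mice, how the gene was deleted, or whether the PBS and intralipid cultures had a mock pre-incubation. No wild-type array was analysed here. With 1 array a side there is no replicate check, so no test was run, and "higher" and "lower" describe these arrays and not the conditions. The number of arrays limits the precision.

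Macrophages take up lipid from triglyceride-rich particles after lipoprotein lipase, which they secrete, has released fatty acids, and ANGPTL4 is a secreted inhibitor of that lipase. Fatty acids that enter the cell are stored as triglyceride in lipid droplets, burned in mitochondria or built into membranes. The SREBP transcription factors drive genes of cholesterol and fatty acid synthesis, and sterols and unsaturated fatty acids hold back their activation. A surplus of saturated fatty acids is known to disturb the endoplasmic reticulum and to switch on stress kinases, immediate early genes, the integrated stress response with its transcription factor ATF4, and inflammatory cytokines.

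A gene was counted as past the expression floor if it reached, on either array, the median log2 value of all probe sets with 1 gene symbol on that array, which was 5.00 for PBS and 4.98 for intralipid. This held for 10018 of 19938 genes. Angptl4 itself had a log2 value of 4.92 on every array, below the floor, and whether its probes lie in the deleted stretch is not known, so the value does not check the genotype. All 16 macrophage markers passed the floor, at a median log2 level of 10.90 with PBS and 10.88 with intralipid. Of the 16, Cd14 was the 1 marker at least 2-fold apart. Mast cell markers (9 measured) had 0 members past the floor, B cell markers 1 of 9 (Cd22), T and NK cell markers 1 of 10 (Il7r), dendritic cell markers 1 of 8 (Clec9a), eosinophil markers 1 of 5 (Siglecf) and neutrophil markers 3 of 12. Fibroblast markers had 6 of 9 past the floor, with a median log2 value over the 9 of 7.65 and 7.38, and none of them was 2-fold apart. In such bulk RNA, fewer cells of a type and less RNA per cell cannot be told apart.

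The response was uneven in direction. Of the genes past the floor, 252 stood at least 2-fold higher with intralipid (2.52% of 10018) and 133 lower by that much (1.33%), in all 3.84%, where 2-fold is a log2 difference of 1. At 4-fold the numbers were 74 higher (0.739%) and 11 lower (0.11%). Counted without a threshold, the balance ran the other way, with 2353 genes higher (23.5%), 4463 lower (44.5%) and 3202 identical on both arrays. Most of the lower genes were lower by little, since 113 of the 133 lay between 2-fold and 3-fold, against 135 of the 252 higher ones. Above 8-fold there were 22 higher genes and 1 lower gene, Kcnj2. The central 68% of the differences ran from -0.29 to 0.11, and their robust SD, taken from that range, was 0.20, or 1.15-fold. The share of higher genes was greatest among genes with high signal: of the 2505 genes with the highest mean log2 value, 101 stood at least 2-fold higher and 24 lower, against 34 and 20 of the 2505 with the lowest. Of the 252 higher genes, 32 lay below the floor with PBS, and of the 133 lower genes, 12 lay below it with intralipid, so their folds rest on values near background, and where such a gene is named with a fold, the fold against the floor is given too. A gene that passed the floor only on its higher array was bound to differ, which touches the counts of lists with such members.

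**Figure D1:**
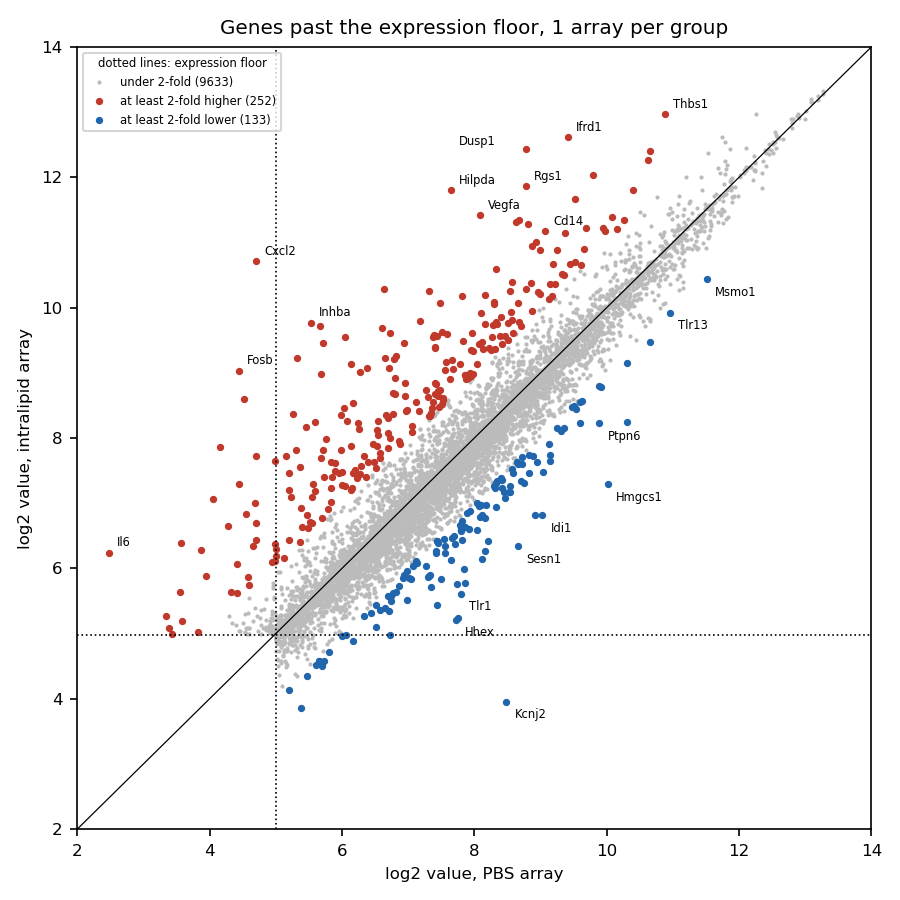
Each point is a gene past the expression floor, with its log2 value on the PBS array (x axis) against that on the intralipid array (y axis), 1 array per group; the solid line marks equal values and the dotted lines the floors. The 252 genes at least 2-fold higher (red) reach farther from the line than the 133 at least 2-fold lower (blue), apart from Kcnj2.

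The genes with the largest differences upward were secreted signals, immediate early factors and the lipid droplet protein Hilpda. Cxcl2, a chemokine for neutrophils, stood at a log2 value of 4.70 with PBS, at 10.71 with intralipid and at 8.29 with intralipid plus ANGPTL4. Intralipid thus stood 64.6-fold above PBS, or 52.4-fold above the floor, as PBS lay below it. Hilpda, an inhibitor of the triglyceride lipase of lipid droplets, had values of 7.65, 11.80 and 8.79 on the same arrays. Inhba, which encodes an activin subunit, had values of 5.53, 9.77 and 5.77, and Osm, a cytokine of the interleukin-6 family, 5.67, 9.71 and 5.62. In Inhba and Osm the array with ANGPTL4 differed from PBS by little, 0.24 and -0.05 on the log2 scale. In Cxcl2 and Hilpda it lay between PBS and intralipid. Less studied genes stood among the 30 largest too. Ifrd1, a transcriptional co-regulator, had a log2 value of 9.42 with PBS and 12.62 with intralipid. Malsu1, a factor of mitochondrial ribosome assembly, had 6.61 and 9.70, Dnmt3aos, an antisense transcript of Dnmt3a, 7.32 and 10.25, and Ankrd33b 5.46 and 8.17. Tcim had 4.70 with PBS, below the floor, and 7.73 with intralipid, 6.64-fold above the floor.

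Downward, the largest difference belonged to a potassium channel. Kcnj2 stood at 8.48 with PBS, 3.96 with intralipid and 8.57 with ANGPTL4 on the log2 scale, so intralipid alone stood 23.05-fold below PBS, or 11.3-fold with intralipid set at the floor. Hhex, a homeobox transcription factor, had 7.73, 5.21 and 7.61 on the same arrays, and Sesn1, a stress-responsive inhibitor of mTORC1, 8.66, 6.34 and 7.94. Tmem50b had 10.31 with PBS and 8.24 with intralipid, and Frmd4b 8.12 and 6.15. Themis2, a signalling scaffold of myeloid cells, had 8.21 and 6.42, and Glrx, a glutaredoxin, 7.34 and 5.71. Gpr84, a receptor for medium-chain fatty acids, was lower with intralipid (5.11) than with PBS (6.51) and far above both with ANGPTL4 (10.83). Tlr1, a receptor described further on, also had its highest value on the third array. Differences from the third array share a sample with those of intralipid from PBS, so its values stand beside the others as description. Genes picked for a large difference between the PBS and intralipid arrays can lie nearer PBS on the third through that choice alone. No effect of ANGPTL4 is read from these values.

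**Figure D2:**
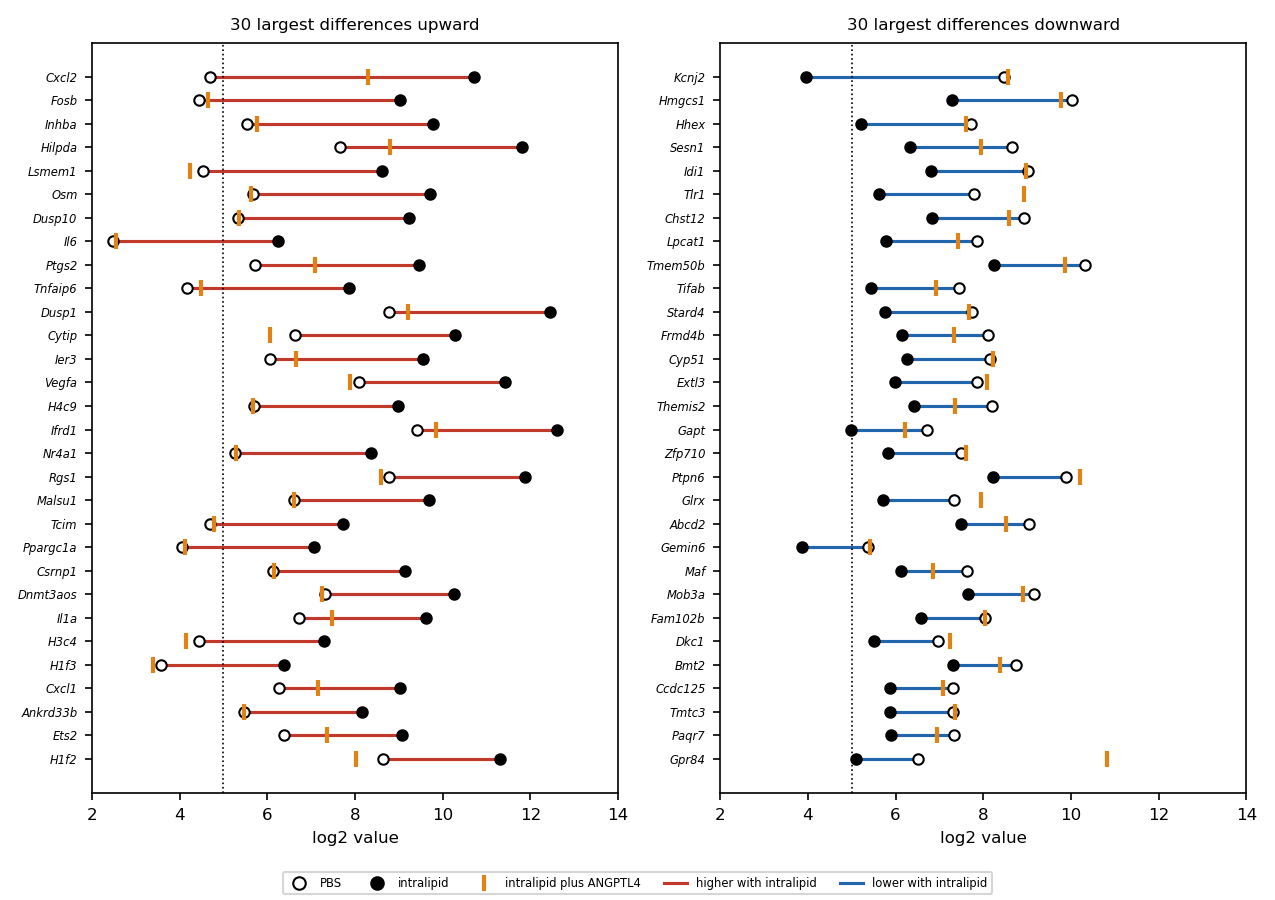
Log2 values (x axis) of the 30 genes farthest apart each way, with PBS as open circles, intralipid as filled circles and intralipid plus ANGPTL4 as orange bars, 1 array each; the dotted line is the PBS floor of 5.00. Cxcl2 spans 4.70 to 10.71 in the left panel and Kcnj2 8.48 to 3.96 in the right one, and the orange bar of Gpr84, at 10.83, lies far to the right of both its circles.

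Many immediate early transcription factors were higher with intralipid. The 49 gene lists used from here on were chosen with earlier results of these data known. Their shares are descriptions and give no independent support. Counts without a share beside them compare with those over all genes. These were 2.52% at least 2-fold higher and 1.33% lower, and by any amount 23.5% higher and 44.5% lower. AP-1 is a dimer of Fos, Jun and ATF family proteins that binds the promoters of cytokine and protease genes. Of 24 members of the AP-1, ATF and CREB family past the floor, 10 were at least 2-fold higher (41.7%, against 2.52% of all genes) and 1 was lower, and the median difference was 0.40, against 0 over all genes. Of the 24, 1 passed the floor only with intralipid, and the 23 past it on both arrays had 9 at least 2-fold higher and a median of 0.37. Over all 27 members measured, with no floor, 10 were at least 2-fold higher and the median was 0. Fosb had a log2 value of 4.44 with PBS, below the floor, and 9.03 with intralipid, a 16.4-fold difference from the floor. Fos had 7.81 and 10.19, Junb 6.03 and 8.47, Fosl2 6.77 and 8.69 and Jun 9.69 and 11.23. Of the small Maf proteins, which have no activation domain of their own, Maff had 5.19 and 7.21 and Mafk 7.12 and 8.56, while Mafg had 8.15 on both arrays. Maf, a large Maf protein of differentiated macrophages, was the lower member, with 7.64 and 6.12.

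Another set of immediate early genes, the NR4A, EGR, IER and KLF families, had 14 of 35 members at least 2-fold higher (40.0%, against 2.52% of all genes). Lower by any amount were 5, with 0 at least 2-fold lower, and the median difference was 0.68. Of the 35, 2 passed the floor only with intralipid. The 33 past it on both arrays had 13 at least 2-fold higher and a median of 0.66. Ier3 had a log2 value of 6.05 with PBS and 9.55 with intralipid. Nr4a1, an orphan nuclear receptor, had 5.26 and 8.37, and Csrnp1, a nuclear protein, 6.13 and 9.14. Nfil3 (6.66 and 9.22), the antiproliferative Btg2 (6.80 and 8.68) and the clock gene Per1 (6.13 and 7.88) were higher as well. Klf4 had 6.20 and 7.51. On the array with ANGPTL4, Nr4a1 (5.29), Csrnp1 (6.16), Btg2 (6.75) and Per1 (5.92) were near their PBS values.

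Phosphatases and other brakes on MAP kinase signalling, which are themselves induced by it, made up the third group of this kind. Of 19 members, 7 were at least 2-fold higher (36.8%, against 2.52% of all genes) and 1 was lower (5.26%, against 1.33%). The median difference was 0.17. Dusp10, which acts on the stress kinases JNK and p38, stood at 5.32 with PBS, 9.23 with intralipid and 5.36 with ANGPTL4 on the log2 scale. Dusp1, which acts on the same kinases, had 8.78, 12.44 and 9.20. Dusp5 (6.17 and 8.54) and Dusp4 (6.70 and 9.07), nuclear phosphatases of ERK, were higher with intralipid too. The cytoplasmic ERK phosphatase Dusp7 was the lower member, with 8.09 and 6.79. Errfi1, an inhibitor of the EGF receptor, had 6.94 and 9.46. Dusp1 and Ppp1r15a, a stress response gene described further on, are shown as examples of genes with an exact cAMP response element (TGACGTCA, in capitals) upstream of the start site. Of the genes at least 2-fold higher with a promoter window, 11 of 193 held it, Btg2 and Maff among them, and 296 of all 8122 did. In these 55-base stretches from RefSeq (build GRCm38.p6), the element begins 143 bases before the start of Dusp1 (minus strand, chr17:26508583-26508637) and 12 bases before that of Ppp1r15a (minus strand, chr7:45526269-45526323).
Dusp1: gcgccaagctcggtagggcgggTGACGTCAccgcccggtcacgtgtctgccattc
Ppp1r15a: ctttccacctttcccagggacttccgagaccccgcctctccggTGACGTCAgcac
The Dusp1 stretch also holds the E-box CACGTG and the Ppp1r15a stretch the 9-letter NF-kB motif GGGNNTTCC, both left in lower case.

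Regulators of G protein and cyclic AMP signals moved in part with these. Of 27 members, 5 were at least 2-fold higher (18.5%, against 2.52% of all genes) and 1 was lower. Of the 27, 1 passed the floor only with intralipid, and the 26 past it on both arrays had 4 at least 2-fold higher. The median difference of 0.02 turned to -0.01 with arrays centred on their medians. Rgs1, which shortens signals of Gi-coupled chemoattractant receptors, had a log2 value of 8.78 with PBS and 11.87 with intralipid. The cyclic AMP phosphodiesterases Pde7b (8.17 and 10.19) and Pde4b (4.69, below the floor, and 6.44, 2.71-fold above it) were higher, as was Pde3b (7.16 and 8.41). Sik1, a kinase that holds back CREB co-activators, had 5.99 and 7.82. Rgs18 was the lower member, with 7.70 and 6.38. Of 16 RNA decay and translation regulators, 2 were at least 2-fold higher, Zfp36 (8.40 and 9.86) and the nuclease Zc3h12a (6.98 and 8.44), both of which destabilise cytokine mRNAs. Other members with that role did not share this direction: Zc3h12c had 7.23 and 6.67, Rc3h1, or roquin, 8.38 and 8.01, and Zfp36l1 6.70 and 6.67.

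Among secreted signals, chemokine ligands had 4 of 16 members past the floor at least 2-fold higher, 0 at least 2-fold lower and 13 higher by any amount, with a median difference of 0.61. Of the 16, 2 passed the floor only with intralipid. Over all 29 measured, with no floor, 13 were higher by any amount, 4 at least 2-fold, and the median was 0. Besides Cxcl2, its neighbour Cxcl1, another neutrophil chemokine, stood at 6.27 with PBS, 9.01 with intralipid and 7.16 with ANGPTL4 on the log2 scale. Cxcl10 had 5.36, 6.41 and 6.25, and Ccl9 8.71, 9.72 and 10.23. Ccl9 went under 2-fold (0.98) with centred arrays. The monocyte chemokine Ccl2 had 5.06 with PBS and 5.94 with intralipid, under 2-fold. The upstream stretches of Cxcl2, Cxcl1 and Il6 are printed because each holds a 10-letter form of the NF-kB motif (GGG, any 2 letters, then TTTCC, in capitals, on either strand). That motif was added after the 9-letter one had missed these sites. The stretches are from the same RefSeq build, all on the plus strand. Matches begin 97 and 78 bases before the start of Cxcl2 (chr5:90903789-90903843), 89 and 71 bases before that of Cxcl1 (chr5:90891145-90891199) and 44 bases before that of Il6 (chr5:30013049-30013103).
Cxcl2: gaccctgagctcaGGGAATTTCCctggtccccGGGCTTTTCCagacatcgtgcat
Cxcl1: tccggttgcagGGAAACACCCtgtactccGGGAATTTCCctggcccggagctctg
Il6: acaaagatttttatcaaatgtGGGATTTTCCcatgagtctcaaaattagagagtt
In Cxcl1 the first of the 2 matches reads on the opposite strand.

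Of 27 cytokines and growth factors, 11 were at least 2-fold higher (40.7%, against 2.52% of all genes) and 1 was lower by that much. The median difference was 0.19. Of the 27, 3 passed the floor only with intralipid, and the 24 past it on both arrays had 8 at least 2-fold higher and a median of 0.08. Il6 stood at 2.48 with PBS, 6.24 with intralipid and 2.54 with ANGPTL4 on the log2 scale, which is 2.37-fold above the floor. Lif, of the same cytokine family, had 3.38, 5.08 and 3.74, barely past the floor with intralipid. Il1a had 6.73, 9.61 and 7.48, and the receptor antagonist Il1rn 8.38, 9.56 and 8.67. Vegfa (8.09, 11.43 and 7.89), Hbegf, a ligand of the EGF receptor (5.57, 7.29 and 5.89), and Thbs1, thrombospondin 1 (10.88, 12.97 and 9.95), completed the growth factors and matrix signals with large differences. Tnf had 7.53 with PBS, 8.61 with intralipid and 10.52 with ANGPTL4, so here the third array stood above both others. Il1b, Il10 and Nos2 were below the floor on both arrays. Csf1, the growth factor of macrophages themselves, was the lower member, with 6.52 and 5.44.

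The NF-kB system, which drives many of these cytokines, was represented by few large differences, with 2 of 25 members at least 2-fold higher, 0 at least 2-fold lower and a median difference of 0.17. Its feedback inhibitor Tnfaip3 had a log2 value of 8.85 with PBS and 10.38 with intralipid, and Nfkbiz, a nuclear cofactor, 5.54 and 6.69. Nfkbia, the classic inhibitor, had 8.26 and 8.93, under 2-fold. Suppressors of cytokine signalling and STATs had 0 of 15 members at least 2-fold apart, with Socs3 the largest at 6.02 and 6.95. TNF superfamily members had 2 of 15 at least 2-fold higher, Tnf and Tnfrsf12a (7.28 and 8.74), the receptor of TWEAK. Among 26 cytokine receptors, Il21r was higher (5.39 and 6.64) and Il6ra, the interleukin-6 receptor, lower (8.42 and 7.23).

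Prostaglandin and interleukin-1 genes showed no common direction. Of 16 prostaglandin and leukotriene genes, 2 were at least 2-fold higher and 1 was lower, with a median difference of -0.02. Ptgs2, the inducible cyclooxygenase, stood at 5.72 with PBS, 9.46 with intralipid and 7.09 with ANGPTL4 on the log2 scale, and Ptges, the prostaglandin E synthase downstream of it, 6.17, 7.46 and 7.41. Ptger4, a prostaglandin E receptor, was lower with intralipid, with 7.12 and 6.12. In the list of inflammasome and interleukin-1 processing genes, 3 of 17 members were at least 2-fold higher and 1 lower. The sensor Nlrp3 had 5.19 with PBS and 7.46 with intralipid, while the adaptor Pycard, through which it recruits caspase 1, had 7.86 and 6.63. Casp1 itself had 8.60 and 7.69, 1.87-fold lower. Of adhesion and migration genes, Tnfaip6, a hyaluronan-binding protein (4.16, below the floor, and 7.86, 7.26-fold above it), and Cytip, a binding partner of cytohesin (6.63 and 10.29), were far higher, and the integrin subunit Itga4 (8.11 and 6.82) was lower. The metalloproteinase Mmp19 had 9.80 and 12.04. The surface proteins of antigen presentation were higher in part, Cd83 (7.18 and 9.80) and Cd274, the ligand PD-L1 (9.65 and 10.90), as 2 of 17 members of that list.

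Toll-like receptors and their adaptors were lower in most members. Toll-like receptors signal from the cell surface or endosomes through the adaptors Myd88, Tirap and Ticam1. Of 25 receptors and adaptors past the floor, 8 were at least 2-fold lower (32.0%, against 1.33% of all genes), 2 at least 2-fold higher, and the median difference was -0.67. Tlr1 stood at 7.80 with PBS, 5.61 with intralipid and 8.93 with ANGPTL4 on the log2 scale, and its neighbour Tlr6 had 7.80, 6.63 and 7.97. Both proteins pair with Tlr2 to recognise lipopeptides, and Tlr2 itself was not lower, with 8.64 and 8.93. The RNA sensors Tlr7 (8.42 and 7.36), Tlr8 (9.31 and 8.11) and Tlr13 (10.96 and 9.92) were each at least 2-fold lower. Tlr4, the lipopolysaccharide receptor, had 8.07 and 7.35, and its adaptor Tirap 6.74 and 5.50. Cd180, a Toll-like receptor homologue, had 10.30 and 9.15, and Tifab, an inhibitor of the TRAF-binding protein Tifa, 7.44 and 5.43. Opposite to these stood Cd14, the co-receptor of Tlr4, with 9.07 and 11.17, and the kinase Irak2 with 7.86 and 8.96.

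Other receptors showed no common direction or a weaker one. Of 23 C-type lectins and other innate receptors, 3 were at least 2-fold higher and 2 lower. Trem1 and Clec9a, both among the 3, passed the floor only with intralipid, where they were high. The 21 members past it on both arrays had 1 at least 2-fold higher and 2 lower. Clec4e, the glycolipid receptor Mincle, had a log2 value of 8.29 with PBS and 10.09 with intralipid, and Clec5a had 8.52 and 7.17. Trem1 had 3.55 and 5.63, 1.55-fold above the floor. Fc receptors and their signalling chain had a median difference of -0.33, with 10 of 14 lower by any amount (71.4%, against 44.5% of all genes). Only Ptpn6, the phosphatase SHP-1, was at least 2-fold lower (9.89 and 8.23). Of 9 chemokine and chemoattractant receptors, 2 were at least 2-fold higher and 2 lower, or 2 and 1 of the 8 past the floor on both arrays. Their median difference of -0.27 reversed with a higher floor or with the mean. Ccrl2, an atypical receptor that binds chemerin (8.81 and 11.28), and Ccr1 (7.41 and 9.38) were higher, and the chemerin receptor Cmklr1 (7.81 and 6.58) and Cx3cr1 (6.01 and 4.97, just below the floor) lower. Olr1, the receptor of oxidised LDL, was the 1 scavenger receptor of 14 at least 2-fold apart, with 7.97 and 9.61. Type I interferon response genes had 16 of 23 members lower by any amount (69.6%, against 44.5% of all genes) and a median difference of -0.14. At least 2-fold higher were 2, Trim25 (8.30 and 10.06) and Cxcl10, and 1 was lower, Irf1. Irf1 differed by -1.11 on the probe set used, while its other probe set, below the floor, was identical on both arrays.

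Genes of the ATF4 arm of the integrated stress response were higher for the most part. In that response the kinase PERK and others phosphorylate the initiation factor eIF2, and translation slows. ATF4 is then made and switches on genes for amino acid uptake and synthesis and the factor CHOP. Neither eIF2 phosphorylation nor ATF4 protein was measured here. Of 35 targets of ATF4 and CHOP past the floor, 31 were higher by any amount (88.6%, against 23.5% of all genes). At least 2-fold higher were 11 of the 35 (31.4%, against 2.52%). Lower by any amount were 2, with 0 at least 2-fold lower, and the median difference was 0.44. Atf3, of the same list, was under 2-fold. Atf4 had a log2 value of 8.87 with PBS and 9.94 with intralipid, and Ddit3, which encodes CHOP, 6.78 and 9.21. Trib3, a pseudokinase that restrains ATF4, had 5.59 and 8.25, and Ppp1r15a, the phosphatase subunit that reverses eIF2 phosphorylation, 6.07 and 8.26. Sesn2 (5.76 and 7.99) and Ddit4 (5.37 and 7.55) encode inhibitors of mTORC1. Enzymes followed, with Asns, asparagine synthetase, at 7.38 and 8.56 and Mthfd2, of the mitochondrial folate cycle, at 6.67 and 8.35.

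Slc7a11, the cystine transporter, had its highest value on the third array. On the log2 scale it stood at 7.52 with PBS, 9.63 with intralipid and 10.03 with ANGPTL4, while Trib3 (5.42), Ddit3 (6.55), Sesn2 (5.71) and Ddit4 (5.39) were near or below PBS there. Cebpb, of the same list, lay between its values for PBS (8.57) and intralipid (10.39) on that array, at 9.43. Slc7a11 is also counted among amino acid transporters and NRF2 targets. Its promoter is printed because it holds 2 copies of the ATF4 motif TGATGNAA (in capitals), 1 on each strand, which begin 66 and 47 bases before the start (minus strand, chr3:50443639-50443693, GRCm38.p6).
Slc7a11: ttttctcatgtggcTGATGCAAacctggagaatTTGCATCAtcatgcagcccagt
Of the ATF4 list, 31 members had a RefSeq promoter window, and 9 of these (29.0%) held the motif, against 2.73% of all 8122 genes past the floor with a window. This match is a description of letters and says nothing of binding.

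The parts of the stress response that ATF4 shares with other pathways were higher in a few genes only. Amino acid transporters had 4 of 21 members at least 2-fold higher and 1 lower. They were Slc7a11, the cationic transporter Slc7a1 (6.34 with PBS and 7.73 with intralipid), the large neutral transporter Slc7a5 (6.28 and 7.57) and Slc38a2 (8.99 and 10.21), while the lysosomal Slc36a1 was lower by a log2 difference of -1.04. Aminoacyl-tRNA synthetases had 0 of 33 members at least 2-fold apart and a median difference of 0, although cytosolic enzymes led upward, with Cars at 7.67 and 8.35, Rars at 9.99 and 10.64 and Eprs at 8.35 and 8.85. Chaperones of the endoplasmic reticulum and unfolded protein response genes had 1 of 30 at least 2-fold higher and a median of 0. That gene was Ern1, which encodes the stress sensor IRE1, with 7.48 and 10.07 and again 7.48 on the array with ANGPTL4. Eif2ak3, which encodes PERK, had 7.41 and 6.44, 1.96-fold lower, and the chaperone Hspa5 (BiP) 11.24 and 11.61, 1.29-fold higher. Among 24 heat shock proteins, Hspa1a was the 1 member at least 2-fold apart, with 5.99 and 8.35.

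**Figure D3:**
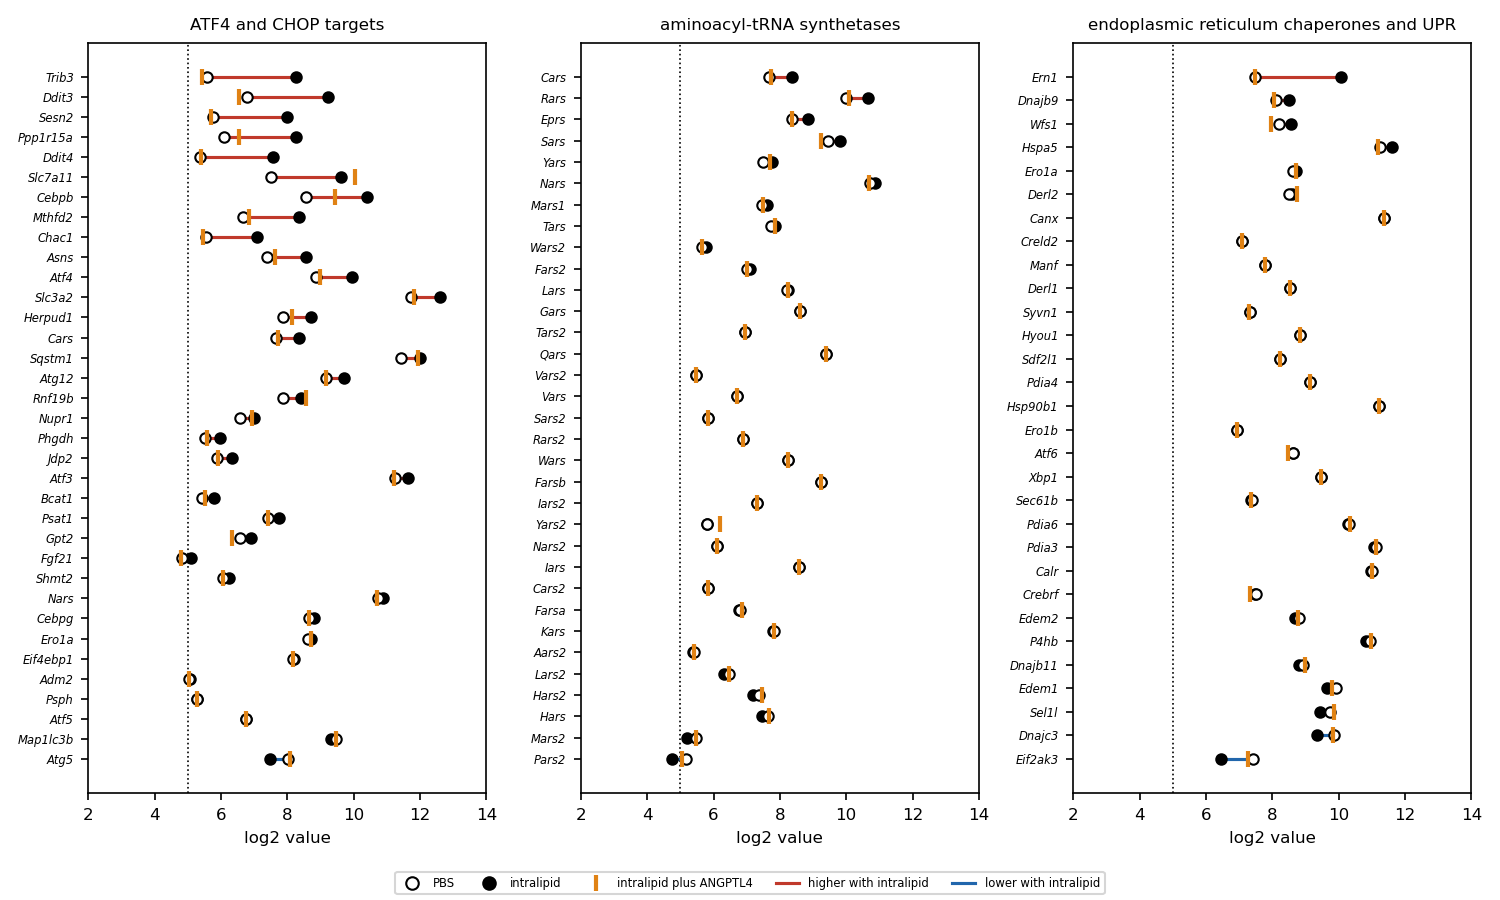
Log2 values (x axis) of the members past the floor of 3 gene lists, with PBS as open circles, intralipid as filled circles and intralipid plus ANGPTL4 as orange bars, 1 array each. In the left panel 11 of 35 ATF4 and CHOP targets are at least 2-fold higher with intralipid, in the middle panel 0 of 33 synthetases, and in the right panel 1 of 30, Ern1 (7.48 and 10.07).

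Targets of FoxO and p53, which respond to growth factor loss and DNA damage, were mixed. Of 29, 8 were at least 2-fold higher (27.6%, against 2.52% of all genes) and 2 lower (6.90%, against 1.33%). The median difference was 0.18. The 3 Gadd45 genes, encoding small stress proteins that activate p38, were all higher: Gadd45a had a log2 value of 8.99 with PBS and 10.88 with intralipid, Gadd45b 10.08 and 11.39 and Gadd45g 9.37 and 11.14. Irs2, an adaptor of the insulin receptor, had 6.24 and 8.22, and the kinases Plk2 and Plk3 had 10.40 and 11.81, and 6.95 and 8.64. The sestrins went opposite ways, Sesn2 higher and Sesn1 lower. Trp53inp1 was lower too, with 8.83 and 7.74. Of 26 cell survival and death genes, the kinases Pim1 (8.88 and 10.94) and Pim3 (6.57 and 7.69) were higher, and Casp9, at 8.34 and 7.33, lay at the 2-fold line.

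Cholesterol synthesis was the list with the lowest median. Its enzymes convert acetyl-CoA through mevalonate and squalene to cholesterol, and their genes are driven by SREBP2. Of 18 members past the floor, 16 were lower by any amount (88.9%, against 44.5% of all genes). At least 2-fold lower were 7 of the 18 (38.9%, against 1.33%). Of the others, 1 was identical and 1, Ggps1, was higher, with 7.83 and 7.91. The median difference was -0.86. Before squalene, Hmgcs1 stood at 10.02 with PBS, 7.29 with intralipid and 9.78 with ANGPTL4 on the log2 scale, Idi1 9.03, 6.82 and 8.98, Fdps 8.58, 7.47 and 8.65 and Fdft1 9.14, 7.91 and 9.16. After squalene, Cyp51 had 8.16, 6.27 and 8.22 and Msmo1 11.51, 10.43 and 11.50. Sc5d had 9.48, 8.47 and 9.33, and went just under 2-fold (-0.99) with cyclic loess. The stretch upstream of Hmgcs1 is printed as the 1 promoter of 15 in this list with the sterol response motif CACCCCAC (in capitals), which begins 136 bases before the start (plus strand, chr13:119690191-119690245, GRCm38.p6).
Hmgcs1: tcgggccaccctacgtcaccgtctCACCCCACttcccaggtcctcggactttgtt
That share (6.67%) compares with 7.25% of windows of genes at least 2-fold higher, 6.42% of those at least 2-fold lower and 3.78% of all, so the motif was no more frequent in this list than in the higher genes.

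Around the pathway, Stard4, a carrier of sterols between membranes, had a log2 value of 7.74 with PBS and 5.75 with intralipid, and was the 1 gene of 17 in sterol sensing and uptake at least 2-fold apart. Insig1, which retains SREBP in the endoplasmic reticulum, had 10.45 and 9.50, 1.93-fold lower, Srebf2 8.72 and 8.34, and Srebf1 7.34 on both arrays. Mylip, the ligase that degrades the LDL receptor, had 8.14 and 7.21. Among 13 LXR targets and efflux genes, Abca1, the exporter of cholesterol to HDL, was higher (9.19 and 10.67) and Abcg1 differed little (10.05 and 10.26). Fatty acid synthesis and elongation genes had 16 of 22 members lower by any amount (72.7%, against 44.5% of all genes). At least 2-fold lower were 3 and at least 2-fold higher 0, with a median difference of -0.24. Of the 22, 1 passed the floor only with PBS, and the 21 past it on both arrays had 2 at least 2-fold lower and a median of -0.21. The desaturase Scd2 had 8.82 and 7.46, the elongase Elovl6 5.60 and 4.52, 1.54-fold apart with intralipid set at the floor, and Fasn, fatty acid synthase, 5.82 and 5.14. Mid1ip1, an activator of acetyl-CoA carboxylase, had 8.33 and 6.95 on the probe set used, but its other probe set was identical on both arrays, and the mean over both was -0.69.

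**Figure D4:**
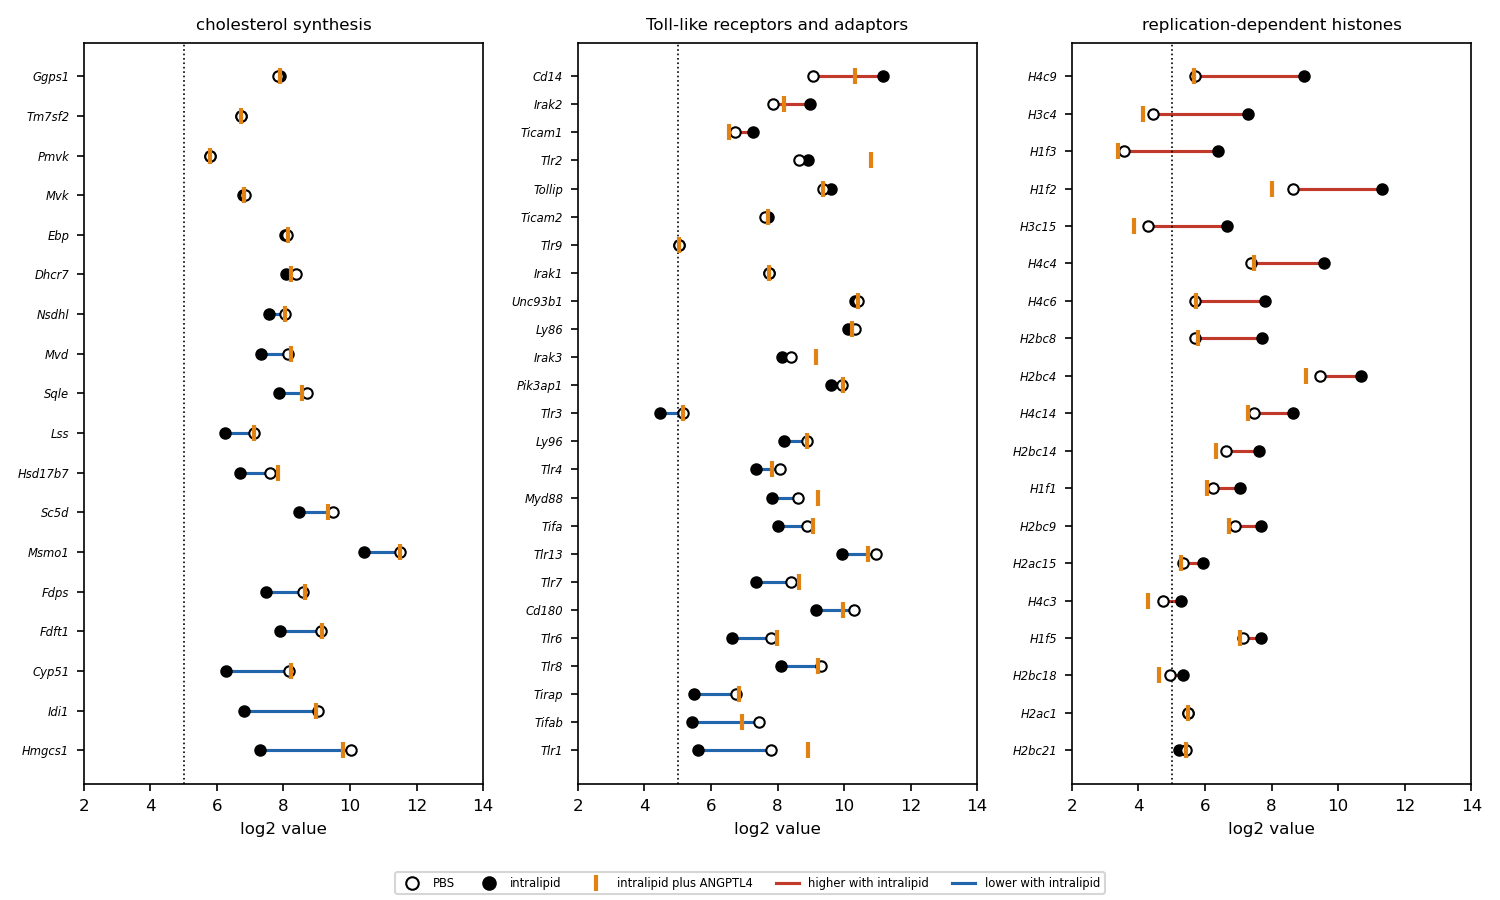
Log2 values (x axis) of the members past the floor of 3 gene lists, with PBS as open circles, intralipid as filled circles and intralipid plus ANGPTL4 as orange bars, 1 array each. Intralipid lies left of PBS for 16 of 18 cholesterol synthesis genes and 17 of 25 Toll-like receptors and adaptors, and right of it for 17 of 19 histone genes. Of all genes past the floor, 44.5% were lower and 23.5% higher by any amount.

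Genes of lipid storage and use were at odds with the synthetic ones only in single members. Among 25 lipid droplet and triglyceride turnover genes, 3 stood at least 2-fold higher and 0 lower by that much, and the median difference was -0.01. Besides Hilpda these were Gpat3, which starts glycerolipid synthesis (5.86 with PBS, 7.39 with intralipid and 5.61 with ANGPTL4), and Dgat1, which finishes triglyceride (7.67, 9.20 and 7.52). Gpam, the mitochondrial counterpart of Gpat3, ran the other way, with 6.59 and 5.86. Plin2, the droplet coat protein, had 12.25 and 12.98, and Pnpla2, the triglyceride lipase, 8.31 and 8.73. In the lipoprotein lipase axis 0 of 14 members were at least 2-fold apart: Lpl had 11.98 and 11.72, Cd36 12.56 and 12.65, and the fatty acid binding proteins Fabp3 and Fabp4 6.29 and 5.61, and 10.27 and 10.58. Among 30 PPAR and fatty acid oxidation genes, only Ppargc1a, a co-activator of mitochondrial genes, was at least 2-fold apart, with 4.05 and 7.06, or 4.18-fold above the floor. Ppargc1a passed the floor only with intralipid, and of the 28 past it on both arrays 0 were at least 2-fold apart. Acadm, the medium-chain acyl-CoA dehydrogenase, had 9.18 and 8.35, and Cpt1a 9.66 and 9.76. Pdk4 lay below the floor on both arrays.

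Membrane lipid and glycan enzymes held several large differences. Lpcat1, which re-acylates lysophosphatidylcholine with saturated chains, stood at 7.86 with PBS, 5.77 with intralipid and 7.44 with ANGPTL4 on the log2 scale. Lpgat1 had 8.06, 6.96 and 7.77, while choline kinase Chka was higher, with 6.05, 7.27 and 6.13. The lists of sphingolipid and hexosamine enzymes, heparan and chondroitin sulphate enzymes, polyamine genes and monocarboxylate transporters were drawn up after values were seen. Of 23 sphingolipid and hexosamine enzymes, 6 were at least 2-fold higher (26.1%, against 2.52% of all genes) and 1 lower. Of the 23, 1 passed the floor only with intralipid, and the 22 past it on both arrays had 5 at least 2-fold higher. Ugcg, which makes glucosylceramide, had 7.83 and 9.48, the glycosyltransferase B3gnt5 3.88, below the floor, and 6.28, 2.43-fold above it, and Sphk1, sphingosine kinase, 6.55 and 8.04. Gfpt1 and Gfpt2, the enzymes of entry into the hexosamine pathway, had 7.57 and 9.17, and 6.27 and 7.45. B4galt6, lactosylceramide synthase, was the lower member, with 8.45 and 7.18. Of 15 heparan and chondroitin sulphate enzymes, 3 were at least 2-fold lower and 1 higher. Chst12, a chondroitin sulphotransferase, had 8.92 and 6.82, whereas its relative Chst11 had 8.68 and 9.78. Extl3 and Extl2, transferases that act on heparan chains, had 7.85 and 5.99, and 7.13 and 6.09.

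Polyamine and arginine genes were higher in part. Odc1, the ornithine decarboxylase that begins polyamine synthesis, stood at 8.68 with PBS, 11.35 with intralipid and 8.78 with ANGPTL4 on the log2 scale. The arginases that supply ornithine were higher too, Arg2 with 4.42, below the floor, and 6.07, 2.10-fold above it, and Arg1 with 7.93 and 8.99. Smox, spermine oxidase, had 7.40 and 8.68, and spermidine synthase Srm ran the other way, with 7.71 and 7.38. In all, 4 of 10 members were at least 2-fold higher (40.0%, against 2.52% of all genes) and 0 at least 2-fold lower. Of the 10, 1 passed the floor only with intralipid, and the 9 past it on both arrays had 3 at least 2-fold higher. Monocarboxylate transporters had 3 of 8 at least 2-fold higher, among them Slc16a6 (7.41 and 9.40) and the lactate carrier Slc16a1 (7.49 and 8.74). Of the 8, 1 passed the floor only with intralipid, and the 7 past it on both arrays had 2 at least 2-fold higher. In the list of glycolysis and hypoxia genes, 4 of 30 were at least 2-fold higher: Vegfa, Pfkfb3, which makes the activator of phosphofructokinase (8.66 and 10.08), the glucose transporter Slc2a1 (9.97 and 11.18) and Hif1a (9.36 and 10.51). The median of that list was 0. Got1, a transaminase of the malate-aspartate shuttle, had 9.52 and 10.70 and was the 1 member of 31 in the citric acid cycle list at least 2-fold apart. Acod1, which makes itaconate, had 6.14 and 6.55, and 11.03 with ANGPTL4.

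Among 37 transcription factors of the macrophage lineage, 3 were at least 2-fold higher and 2 lower, with a median difference of -0.02. Ets2, a target of growth factor signalling, had a log2 value of 6.38 with PBS and 9.08 with intralipid, Hivep2 5.23 and 7.09 and Cebpb 8.57 and 10.39. Hhex and Maf were the lower members. Ion channel genes had 27 of 34 members lower by any amount (79.4%, against 44.5% of all genes), 3 at least 2-fold lower and 0 at least 2-fold higher, and a median difference of -0.15. After Kcnj2 came the potassium channels Kcnk6 (7.92 and 6.60) and Kcnn4 (9.25 and 8.15), and then the chloride transporter Clcn3 (6.87 and 6.02). The nucleotide receptor P2ry6 was lower, with 9.62 and 8.57, as was Gpr84 in the same list of 13 receptors, in which 0 were at least 2-fold higher.

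Histone genes, in a list drawn up after values were seen, had a median difference of 1.18 over the members past the floor. Replication-dependent histones are made in S phase from clustered genes without introns. Of 19 such genes past the floor, 17 were higher by any amount, 10 at least 2-fold and 0 at least 2-fold lower. Of the 19, 5 passed the floor only with intralipid, where they were high, so their direction was set by the filter. Of the 14 past it on both arrays, 12 were higher, 7 at least 2-fold, with a median difference of 1.09. Over all 26 measured, with no floor, 21 were higher, 10 at least 2-fold, and the median was 0.72. H4c9 stood at 5.69 with PBS, 8.98 with intralipid and 5.68 with ANGPTL4 on the log2 scale, H1f2 8.63, 11.31 and 8.02 and H4c4 7.39, 9.58 and 7.48. The third array was at or below PBS in H4c9 and H1f2 and just above it in H4c4. H2bc4, with 9.45 and 10.68, showed a smaller difference. Another 24 probe sets carried several symbols that were all histone genes, and each of the 24 was at least 2-fold higher, by 1.02 to 2.43 on the log2 scale. Histone genes are near-identical copies, so a probe set can report more than 1 of them and the values are not independent. DNA replication and cell cycle genes, which accompany histone synthesis in dividing cells, did not share this direction. Of 32, 0 were at least 2-fold apart. Lower by any amount were 20 (62.5%, against 44.5% of all genes) and higher 2 (6.25%, against 23.5%). Rrm1, a subunit of ribonucleotide reductase, had 8.12 and 7.33, the replication clamp Pcna 10.72 and 10.13 and Cdk2 7.67 and 6.98.

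Several large systems differed by little. Of 48 respiratory chain and ATP synthase genes, 34 were lower by any amount (70.8%, against 44.5% of all genes), 14 identical and 0 higher. The median difference was only -0.07, and 0 reached 2-fold. With cyclic loess, 15 of the 48 were higher. The largest difference was in Atp5g3, a subunit of the proton ring, with a log2 value of 9.96 with PBS and 9.35 with intralipid. Cytosolic ribosomal proteins had a median of 0.03, which turned to -0.01 with centred arrays, and 0 of 33 were at least 2-fold apart. Lysosome and phagosome genes (41) and autophagy genes (33) likewise had 0 members at least 2-fold apart. Gusb, the lysosomal beta-glucuronidase, had the largest difference of the former, with 11.09 and 10.28, and Atg2a, a lipid transfer protein, of the latter, with 6.66 and 7.33. NRF2 targets and glutathione genes had 1 of 29 at least 2-fold higher, Slc7a11, and 1 lower, Gstp1 (8.64 and 7.63). The haem oxygenase Hmox1 had 10.95 and 10.36.

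**Figure D5:**
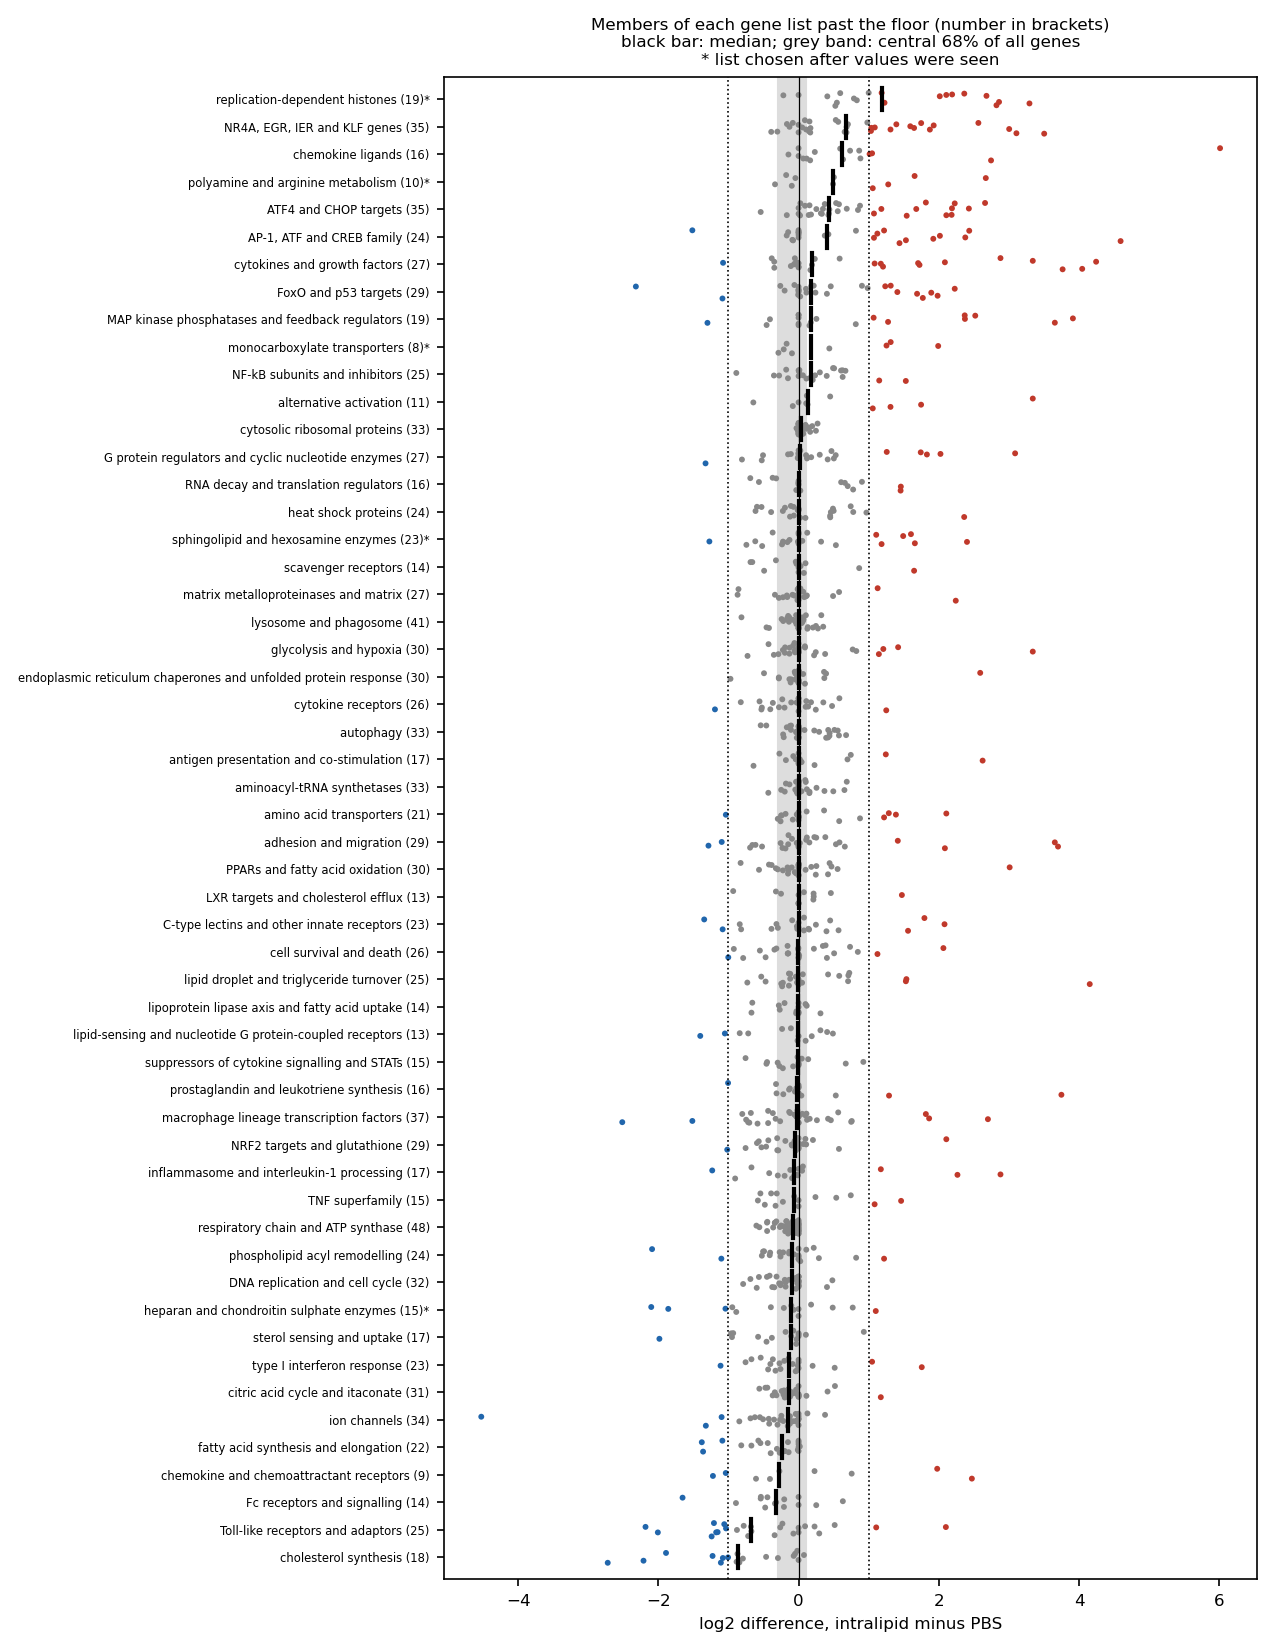
Log2 difference, intralipid minus PBS (x axis), of every member past the floor of the 49 gene lists and of 5 lists chosen after values were seen (asterisks), sorted by the list median (black bars); the grey band is the central 68% of all genes, -0.29 to 0.11, and dotted lines mark 2-fold. Histones (1.18) and the NR4A, EGR, IER and KLF genes (0.68) lie at the top, and cholesterol synthesis (-0.86) and Toll-like receptors (-0.67) at the bottom. Over members past the floor on both arrays, these medians were 1.09, 0.66, -0.86 and -0.51 in the same order. The 49 lists were themselves chosen with earlier results of these data known.

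Across the 49 lists, 4 medians lay above the robust SD of 0.20 and 5 below its negative, and 8 lists had no member 2-fold apart. The lists, chosen with earlier results of these data known, held 114 of the 252 higher genes and 47 of the 133 lower ones. Some genes stand in several lists. Where a gene at least 2-fold apart had other probe sets past the floor, 51 of these 52 had the same sign as the one used, but 29 of the 52 belonged to 1 gene, Chd7. Over the other 19 genes the number was 22 of 23, the exception being that of Mid1ip1.

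Some of the genes at least 2-fold apart lie next to each other on the chromosome in RefSeq's gene order, among genes past the floor. There were 18 such neighbouring pairs of higher genes and 2 of lower genes, and these were looked for after values were seen. Of the 18, 6 joined histone genes. Others were Osm with Lif (log2 differences of 4.05 and 1.71), Cxcl1 with Cxcl2 (2.75 and 6.01), Lsmem1 with Ifrd1 (4.08 and 3.20), Hilpda with Fam71f2 (4.15 and 2.51), Cd83 with Jarid2 (2.63 and 2.01) and Tiparp with Ccnl1 (1.45 and 1.45). Both lower pairs were Toll-like receptors, Tlr1 with Tlr6 (-2.18 and -1.18) and Tlr8 with Tlr7 (-1.21 and -1.06). 

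Promoter windows from 250 bases before to 50 after the start, searched on both strands, were described by the share that held a motif. Genes at least 2-fold higher, of which 193 had a window, held the cAMP response element TGACGTCA in 5.70% against 3.64% of all 8122 genes with a window, and the AP-1 motif TGANTCA in 11.4% against 6.29%. In genes at least 2-fold lower (109 windows) the shares were 0.917% and 8.26%. The 10-letter NF-kB motif was in 1.95% of all windows and in 2.75% of the lower genes' windows. Its share of higher genes is not given, since the motif was added for genes among them. The 9-letter form GGGNNTTCC was in 10 of 22 windows of the NF-kB list (45.5%) and in 8.81% of the higher genes' windows, where the share over all genes was 8.79%. The E-box CACGTG was in 16.1% of higher and 12.3% of all windows. The serum response element (CArG box), searched only as CC, ATATTA and GG in a row, was in 0 windows of either group. That string was in only 1 of all 8122 windows, so the search was too narrow to describe such sites. The median GC content was 61.3% for higher, 61.7% for lower and 61.0% for all windows. No test was run on these shares.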

How the data were processed

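The values used are those deposited, on a log2 scale with 1 value for each probe set and array; the submitters' processing notes name RMA, which corrects background, normalizes arrays together and summarises probes. For its version, the chip definition and the build, the sources used here give nothing. Per the labels' protocols, each array received pooled RNA of 3 samples with integrity numbers above 8.0, and biotin labelling of 100 ng used a sense target assay of Affymetrix.

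Of 35556 probe sets, GEO's platform annotation gave 1 symbol to 21789, several to 1621 and none to 12146. Genes were taken from those with 1 symbol (19938 genes; where a gene had several, as 999 did, the probe set of highest mean value across arrays). Differences are the log2 value with intralipid minus that with PBS, and folds are these on the linear scale. A gene counted as at least 2-fold apart if its difference was 1 or more in size and its higher array reached the floor, the median (50th percentile) of probe sets with 1 symbol. Of 10018 genes past the floor, 3202 had identical values on both arrays, and how these arose was not tested. No test could be run with 1 array a side.

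The members and the 49 gene lists and 12 marker lists were chosen with earlier results of these data known. Of 1419 list symbols, 106 had no probe set of their own. Names in the text were drawn from the 30 largest differences each way (symbols of uncharacterised genes left out; all are plotted), up to 8 members each way of each list, all members of lists with 12 or fewer past the floor, and Angptl4, Lpl, Cd36, Plin2, Hilpda, Cpt1a, Pdk4, Insig1, Srebf1, Srebf2, Abca1, Abcg1, Atf4, Ddit3, Asns, Tnf, Il1b, Il6, Il10, Nos2, Arg1 and Tlr4 whatever their values, and not every gene this allows is named; genes named for their neighbours and members of the 5 further lists were chosen after their values were seen. Promoters came from RefSeq (GRCm38.p6), where 8122 of the genes past the floor had a window. Python 3.11.15, pandas 2.3.3, numpy 2.4.6, R 4.3.3 and limma 3.58.1 (for cyclic loess and quantile normalization as alternatives) were used. Counting and motif search were tested on simulated data. The alternatives were other thresholds, floors, normalizations, probe set rules and list summaries.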

Additional observations from a re-analysis of the deposited data

Results flagged for a closer look

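Probe sets without a single gene symbol were not used for genes, yet some differed between the arrays. Of 771 such probe sets with several symbols past the floor, 44 stood at least 2-fold higher with intralipid than with PBS and 7 lower by that much, and 24 of the 44 carried histone symbols only. Of 4073 probe sets with no symbol in the annotation used here, 207 stood at least 2-fold higher and 85 lower by that much. These signals were picked out because they lie outside the genes counted in the report, above their level on the control array.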

How the results depend on the processing

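The count of genes moved with the fold threshold: at 1.5-fold, 509 were higher and 560 lower, and at 3-fold 117 and 20, so the excess of higher genes held at 2-fold and above. Under the other settings run (arrays centred on their medians, cyclic loess, quantile normalization, the mean over probe sets, no floor, a floor at the 75th percentile, the floor on both arrays, and, added after seeing the data, histone genes left out) the counts stayed between 211 and 257 higher and between 98 and 148 lower. Higher genes made up 65.5% of the calls in the main setting and 61.3% with centred arrays. Of the 201 named genes at least 2-fold apart, at most 4 went under 2-fold in any of the 4 settings run on them and none reversed; those 4, with the mean over probe sets, were Dusp8 (0.80), Irf1 (-0.56), Mid1ip1 (-0.69) and St3gal1 (0.84).

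List medians beyond the robust SD of 0.20 numbered 9 in the main setting, 5 with no floor, 20 with the floor at the 75th percentile, 25 with the mean in place of the median and 21 with identical members left out. The median of chemokine and chemoattractant receptors reversed, from -0.27 to 0.23 with the higher floor and 0.21 with the mean. The cause was not tested. No paired analysis was possible because each group had 1 array, and for the same reason no replicate could be left out.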
